A study of Homo sapiens with 16 samples.

Results

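The cisplatin response of A549/cDDP, a cisplatin-resistant derivative of the human lung adenocarcinoma line A549, was described across 17198 genes. It rests on 4 of the 16 RNA sequencing libraries of the series, chosen by their labels: 2 of untransfected A549/cDDP cells in cisplatin and 2 of untransfected A549/cDDP cells in drug solvent. Cells were seeded at 35000 per well and kept for 24 h with cisplatin, labelled as 15 mM, or with its solvent. That unit is the one on the labels, and no file allowed a check of it. Both groups came from a stock that was itself grown in medium with cisplatin at the same labelled concentration. The labels do not say whether or how long that drug was removed before the experiment, so the solvent libraries are not libraries of cells that never met the drug. The other libraries were of A549/cDDP transfected by lipofectamin RNAi-MAX with 12 pmol of a control gapmer, a kind of antisense oligonucleotide, and then kept for 24 h in cisplatin and in solvent (2 each), of A549/cDDP transfected in the same way with the gapmer labelled L2 (2 in cisplatin and 2 in solvent), and of the parental line A549 in cisplatin and in solvent (2 each). The control gapmer and A549 libraries are compared with the 4 below, and all 12 enter the model: one estimate of spread from the 16 libraries stands behind each p-value, and the filter on low genes was set on their mean. None of these is among the 4. The labels describe the cells as an unsynchronized mixture and leave unsaid whether a replicate was a culture of its own, so a p-value here covers the spread between libraries, which may be technical.

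Cisplatin crosslinks bases within a DNA strand and between strands. Cells answer through the kinases ATR and ATM and the transcription factor p53, which A549 carries as the normal allele, and p53 raises genes that stop the cell cycle, repair DNA or prepare apoptosis. Crosslinks within a strand are removed by nucleotide excision repair, and those between strands by the Fanconi anaemia and homologous recombination proteins. Lines kept in the drug are known to resist it through less uptake, more export, binding to thiols, repair or tolerance of lesions.

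The authors deposited FPKM, in which the fragments of a gene are divided by its length and by the total of the library. Depth recovered from low values was 39240000 and 36080000 fragments for cisplatin and 38720000 and 33220000 for solvent, so that 1 fragment in a gene of 1 kb is worth 0.0255 to 0.0301 FPKM. On the log2 scale replicates correlated across genes at 0.994 in each group. The first principal component of the 4 libraries held 44.8% of the variance and placed cisplatin at 12.7 and 17.1 and solvent at -17.0 and -12.9; the second, 29.8%, separated replicates. Several genes named below share bases with a neighbour in the annotation (TP53I3 with FAM228B, TP53INP1 with NDUFAF6, FTH1 with BEST1, FOXA1 with TTC6, and RARB with TOP2B), and reads from shared bases cannot be told apart. Of 17 lung epithelium markers 9 were high enough to test and 10 stayed under 0.5 FPKM in all 4 libraries. The secretoglobin genes SCGB1A1 and SCGB3A2 and the homeobox gene HOPX were at 0, and the lung transcription factor NKX2-1 had 1.04 and 1.34 FPKM in cisplatin, against 1.11 and 1.07 FPKM in solvent. FOXA1, a transcription factor of lung and other epithelia, had 18.6 and 18.03 FPKM in cisplatin, against 23.7 and 22.3 FPKM in solvent. The epithelial keratin genes KRT8 and KRT18 were abundant, as listed further on. Epithelial genes were thus present, while 10 of the 17 lung markers stayed under 0.5 FPKM. Summed, the 17 held 57.9 and 60.9 FPKM in cisplatin, against 61.4 and 60.99 FPKM in solvent, so members not named here were expressed too. Of 18 markers of blood, vessel, liver, islet, nerve and muscle cells, 17 stayed under 0.5 FPKM and 5 were at 0; summed, the list held 1.74 and 1.83 FPKM in cisplatin, against 3.15 and 4.04 FPKM in solvent. RBFOX3, a neuronal marker, was the exception, with 1.1 and 1.08 FPKM in cisplatin, against 2.3 and 2.54 FPKM in solvent, and its part in other results was not tested.

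Cisplatin moved many genes in A549/cDDP by small amounts. Among gene lists, 25 of 26 mitosis, 23 of 29 S phase and 17 of 27 Fanconi anaemia and homologous recombination genes fell, and 9 of 17 immediate early, 13 of 23 integrated stress response and 9 of 30 p53 and damage-induced genes rose. FOS and EGR1 had the largest rises of any gene with over 25 reads, LCN2, TRIM31 and GPC6 the largest falls. Changes are on the scale log2(FPKM + 0.5), cisplatin minus solvent, and the words rose, fell, higher and lower mark genes past a limma adjusted p of 0.05 (Benjamini-Hochberg over all 17198 genes). In all, 1393 genes passed (8.1% of those tested), 611 of them higher (3.55%) and 782 lower (4.55%). Every list count here and below is to be read beside these shares, and 1 or 2 calls in a short list say little. In each of the 1393 the libraries of both groups did not overlap. With 2 libraries a group a gene can hardly pass this test otherwise, so this is no further support. The same holds where single genes below are said to lie apart in all libraries. The median change was 0.27 among the genes that rose and -0.35 among those that fell, and the smallest change called was 0.11 in absolute size. Of the rises, 86.9% were under 0.5, and of the falls, 78.9% were above -0.5. Over all genes tested the median change was 0.0029 with a median SE of 0.0854. A change of at least 2-fold was reached by 12 rises and 5 falls. At an unadjusted p under 0.05 the count was 3802. When 1 library was left out, the 1393 became 1049 without cisplatin replicate 1, 531 without cisplatin replicate 2, 597 without solvent replicate 1 and 509 without solvent replicate 2. Leaving out a library leaves 1 in its group. A fit of these 4 libraries alone called 417, of which 385 were among the 1393.

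**Figure D1:**
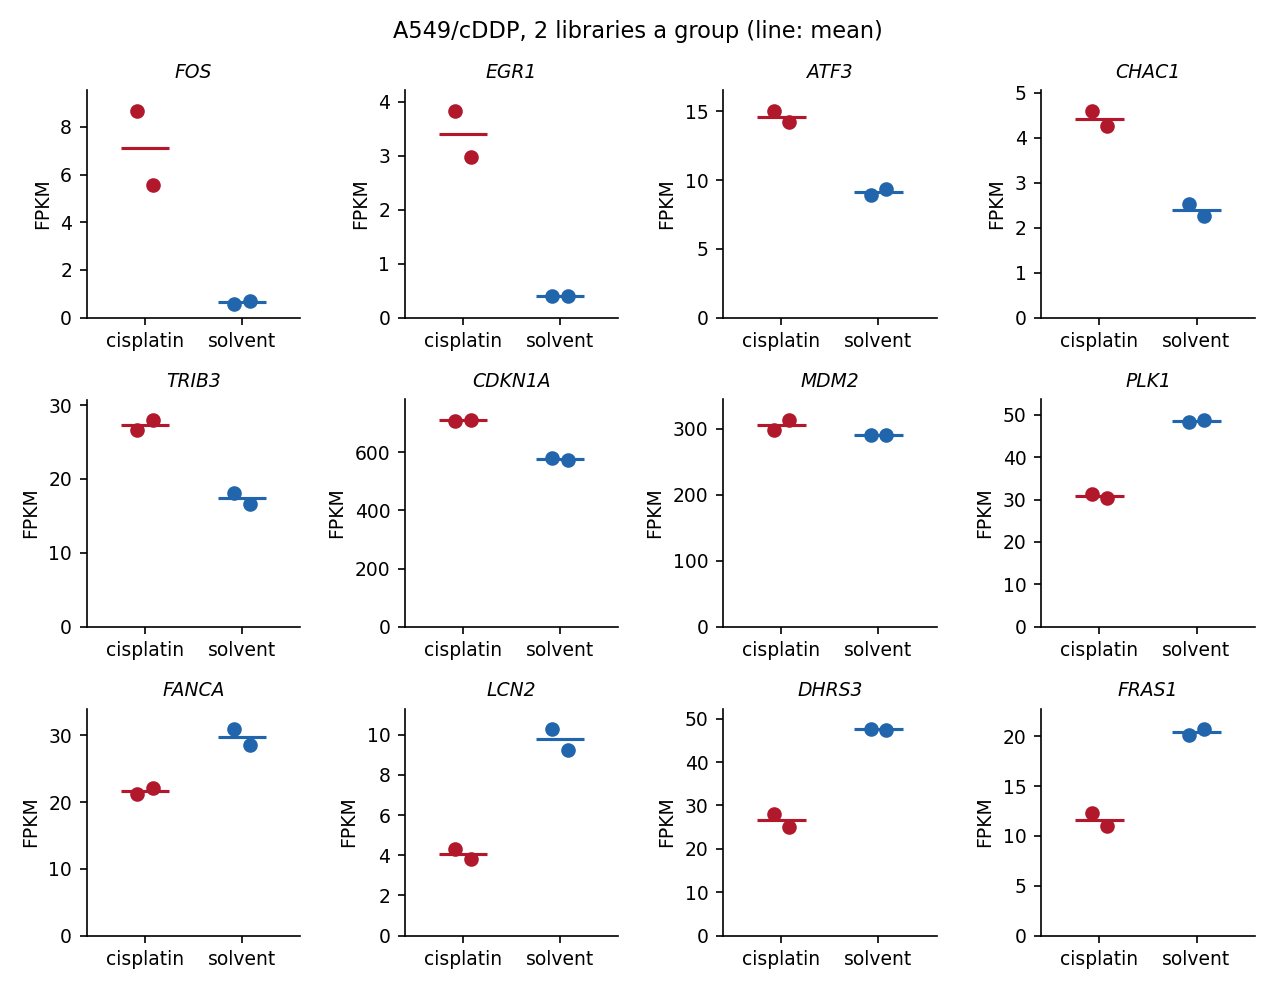
FPKM of 12 genes in the 4 A549/cDDP libraries: points are libraries, lines are group means (n = 2), cisplatin left and solvent right, each y axis starting at 0. FOS and EGR1 are several times higher in both cisplatin libraries, LCN2 is at 4.31 and 3.82 FPKM in cisplatin and 10.3 and 9.24 FPKM in solvent, and MDM2, which did not pass the test, lies close in both groups.

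Immediate early genes encode transcription factors and RNA-binding proteins that cells switch on within minutes of a growth factor or stress signal, mostly without new protein synthesis. Of 17 tested (of 19 listed), 9 rose and none fell, with a median change of 0.26. FOS, a subunit of the transcription factor AP-1, had 8.66 and 5.56 FPKM in cisplatin, against 0.593 and 0.692 FPKM in solvent (log2 change 2.71, SE 0.193, limma adjusted p = 5.69e-05). EGR1, a zinc finger transcription factor, had 3.83 and 2.99 FPKM in cisplatin, against 0.395 and 0.393 FPKM in solvent (log2 change 2.12, SE 0.189, limma adjusted p = 0.000133). EGR1 rested on about 471 and 338 reads in cisplatin, against 48 and 41 in solvent. Solvent levels of FOS and EGR1 lay near the 0.5 FPKM added, so the fitted sizes depend on it. Over the alternatives the log2 change ran from 2.28 to 3.25 for FOS and from 1.65 to 2.82 for EGR1. Cisplatin replicate 1 was the higher of its pair for both genes, and the groups did not overlap. JUNB, another AP-1 subunit, which shares bases with HOOK2 on the other strand, had 70.7 and 75.5 FPKM in cisplatin, against 49.7 and 47.1 FPKM in solvent (log2 change 0.59, SE 0.045, limma adjusted p = 7.77e-05). ATF3, which stress and p53 also induce, had 15.01 and 14.2 FPKM in cisplatin, against 8.92 and 9.33 FPKM in solvent (log2 change 0.65, SE 0.125, limma adjusted p = 0.00798). ZFP36, which speeds decay of AU-rich mRNAs, had 18.3 and 16.6 FPKM in cisplatin, against 12.6 and 13.004 FPKM in solvent (log2 change 0.43, SE 0.0767, limma adjusted p = 0.00543). JUND had 45.3 and 49.3 FPKM in cisplatin, against 39.3 and 30.4 FPKM in solvent (log2 change 0.45, SE 0.0911, limma adjusted p = 0.0111). The smallest rises were in KLF6, IER2 and IER3 (0.37, 0.26 and 0.26). JUN and MYC did not pass (0.28 and 0.039). FOS, EGR1, JUNB and ZFP36 passed under each of 12 alternative settings. ATF3 did not pass without solvent replicate 1 (limma adjusted p = 0.0614), and JUND had a highest limma adjusted p of 0.12. The count of members that rose was lower without each of cisplatin replicate 2, solvent replicate 1 and solvent replicate 2. It was unchanged without cisplatin replicate 1. Members were counted afresh in each fit, so these counts do not follow the same 9 genes.

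Immediate early genes are classic targets of serum response factor, which binds the CArG box, a 10-base motif of 2 C, 6 A or T and 2 G. The EGR1 promoter (chr5:138465229-138465528, plus strand, GRCh38.p14, RefSeq), from 250 bases before the start to 50 after it, is shown because it held 2 such matches, in capitals, within one short stretch.
EGR1: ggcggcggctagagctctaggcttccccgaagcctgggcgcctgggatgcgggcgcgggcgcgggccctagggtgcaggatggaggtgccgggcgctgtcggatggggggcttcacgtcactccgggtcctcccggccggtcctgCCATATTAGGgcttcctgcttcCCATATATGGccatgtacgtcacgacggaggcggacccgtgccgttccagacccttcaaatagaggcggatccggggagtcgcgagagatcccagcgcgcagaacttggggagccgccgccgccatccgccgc
Searched on both strands, the CArG box was found in 2 of 15 promoters of the list in the RefSeq table (EGR1 and SRF), against 1.29% of all 27305 promoters of that length. The cAMP response element TGACGTCA was found in 1 of the 15 (JUND) against 1.98% of all, and the AP-1 site TGANTCA in 1 of 15 (FOSL2) against 7.76%. Among tested genes the CArG box was in 0.99%, the cAMP response element in 3.25% and the AP-1 site in 4.79%. Among genes that rose the shares were 2.18%, 4.14% and 5.45%, and among those that fell 1.63%, 4.57% and 3.26%. FOS was among the 15, and its window held none of these 3 motifs, which says only that the letters are not in this stretch.

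ERK signalling raises its own brakes, the dual-specificity phosphatases and Sprouty proteins. Of 16 ERK feedback and output genes 4 rose and none fell, against 3.55% higher and 4.55% lower over all genes. The list's median was 0.052. DUSP1, a phosphatase of MAP kinases that is also an early response gene, had 64.7 and 61.8 FPKM in cisplatin, against 48.5 and 48.7 FPKM in solvent (log2 change 0.38, SE 0.0331, limma adjusted p = 0.000133). DUSP6, which acts on ERK, had 20.04 and 19.3 FPKM in cisplatin, against 13.99 and 16.02 FPKM in solvent (log2 change 0.38, SE 0.0619, limma adjusted p = 0.0031). SPRY2 and SPRED2 rose by 0.33 and 0.22. DUSP1 passed under each of 12 alternatives; DUSP6, SPRY2 and SPRED2 had highest limma adjusted p values of 0.069, 0.193 and 0.225. The ETS factor and phosphatase genes ETV4, ETV5, DUSP4 and DUSP5 did not pass.

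In the integrated stress response, kinases that sense amino acid shortage, misfolded protein, heme or viral RNA slow translation, and the transcription factor ATF4 then raises genes of amino acid supply and of recovery. Of 23 genes tested, 13 rose and none fell, with a median of 0.19. ATF4 itself had 145 and 142 FPKM in cisplatin, against 119 and 116 FPKM in solvent (log2 change 0.29, SE 0.0349, limma adjusted p = 0.000733). CHAC1, a glutathione-degrading enzyme, had 4.59 and 4.26 FPKM in cisplatin, against 2.52 and 2.27 FPKM in solvent (log2 change 0.77, SE 0.0997, limma adjusted p = 0.000969). TRIB3, a pseudokinase that restrains ATF4, had 26.7 and 27.95 FPKM in cisplatin, against 18.1 and 16.6 FPKM in solvent (log2 change 0.64, SE 0.081, limma adjusted p = 0.00089). DDIT3, the transcription factor CHOP, whose gene overlaps MARS1 and MBD6 on the other strand, had 21.2 and 21.2 FPKM in cisplatin, against 14.96 and 13.99 FPKM in solvent (log2 change 0.53, SE 0.11, limma adjusted p = 0.0112). PPP1R15A, which restores translation, had 34.2 and 37.2 FPKM in cisplatin, against 26.1 and 23.7 FPKM in solvent (log2 change 0.51, SE 0.125, limma adjusted p = 0.0276). In each of these the cisplatin libraries lay above both solvent libraries. NUPR1, a stress-induced chromatin protein gene, and STC2, a secreted glycoprotein gene, rose by 0.69 and 0.48. Of the amino acid enzymes, ASNS (asparagine synthetase), MTHFD2, ALDH1L2 and PSAT1 rose by 0.41, 0.40, 0.37 and 0.19, while PHGDH, PSPH and SHMT2 stood at -0.029, 0.042 and 0.013 and did not pass. Without 1 library the count of 13 was 6 to 8: 6 without cisplatin replicate 1, 8 without cisplatin replicate 2, 6 without solvent replicate 1 and 6 without solvent replicate 2; it was 8 when low genes were not filtered out. TRIB3 and CHAC1 passed under each of 12 alternatives, while NUPR1, DDIT3, PPP1R15A and STC2 had highest limma adjusted p values over the alternatives of 0.0933, 0.0943, 0.175 and 0.107.

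ATF4 with a partner binds a composite element whose first part reads TGATGNAA. It was found in 3 of 18 promoters of the list (ASNS, CHAC1 and SLC3A2), against 3.67% of all promoters in the table. The share was 1.72% for tested genes, 2.61% for genes that rose and 1.79% for genes that fell. The CHAC1 promoter (chr15:40953221-40953520, plus strand, GRCh38.p14, RefSeq) is shown as that of the list member with the largest rise, with its match, on the opposite strand, in capitals.
CHAC1: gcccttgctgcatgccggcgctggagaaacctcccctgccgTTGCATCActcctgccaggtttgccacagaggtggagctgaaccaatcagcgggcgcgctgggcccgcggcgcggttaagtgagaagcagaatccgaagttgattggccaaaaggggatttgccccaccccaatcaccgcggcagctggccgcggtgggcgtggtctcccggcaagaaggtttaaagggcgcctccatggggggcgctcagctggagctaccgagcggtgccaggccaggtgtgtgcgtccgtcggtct
The chaperones of the endoplasmic reticulum, which its own stress sensors raise, changed in part. Of 15 tested, 3 fell (MANF by 0.19, PDIA4 by 0.18 and HSP90B1 by 0.15 on the log2 scale) and 1 rose, HERPUD1, an adaptor of protein disposal (0.25), with a list median of -0.10. Over all genes 4.55% fell and 3.55% rose, and each of these 4 calls ended under 3 to 6 of 12 alternatives. Of 12 heat shock genes, 2 fell and 1 rose: HSPD1 (-0.19), DNAJB1 (-0.19) and CRYAB (0.65). CRYAB, a small heat shock protein gene, had 0.888 and 0.966 FPKM in cisplatin, against 0.433 and 0.388 FPKM in solvent. All 3 calls ended when 1 of several libraries was left out, with highest limma adjusted p values of 0.263 for HSPD1, 0.207 for DNAJB1 and 0.134 for CRYAB.

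CDKN1A, which encodes the cell cycle inhibitor p21 and is the textbook p53 target, was abundant in solvent and rose further. It had 708 and 711 FPKM in cisplatin, against 579.9 and 573 FPKM in solvent (log2 change 0.30, SE 0.0266, limma adjusted p = 0.000133). MDM2, the ubiquitin ligase that degrades p53, had 299 and 313 FPKM in cisplatin, against 291 and 290.0 FPKM in solvent and did not pass (log2 change 0.074, SE 0.0657, limma adjusted p = 0.572). Of 30 p53 and damage-induced genes, 9 rose, none fell, 29 had a change above 0, and the median was 0.15. TP53I3, an oxidoreductase, had 521 and 547 FPKM in cisplatin, against 370.3 and 381 FPKM in solvent (log2 change 0.51, SE 0.0827, limma adjusted p = 0.00326). TP53INP1, a pro-apoptotic and autophagy regulator, had 24.03 and 24.7 FPKM in cisplatin, against 18.03 and 17.7 FPKM in solvent (log2 change 0.44, SE 0.0566, limma adjusted p = 0.000975). GDF15, a secreted stress cytokine, had 135 and 129.6 FPKM in cisplatin, against 111 and 107 FPKM in solvent (log2 change 0.28, SE 0.0522, limma adjusted p = 0.00666). PLK3, SESN2, RRM2B, FDXR and TNFRSF10B rose by 0.34, 0.27, 0.22, 0.15 and 0.14. The rises were thus of small size, the largest being 0.51. BBC3 and PMAIP1, which encode killers of the BCL2 family, had changes of 0.34 and 0.29 and did not pass, nor did BAX (0.074), FAS (0.11), BTG2 (0.084) or CCNG1 (-0.0032). The list's summed level was 4717 and 4769 FPKM in cisplatin, against 4148 and 4182 FPKM in solvent. CDKN1A, TP53I3 and TP53INP1 passed under each of 12 alternatives, and GDF15, PLK3 and SESN2 had highest limma adjusted p values over the alternatives of 0.0685, 0.113 and 0.155. The count of 9 was 9 without cisplatin replicate 1, and 5 without each of cisplatin replicate 2, solvent replicate 1 and solvent replicate 2.

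Among genes that act beside p53, 1 of 27 apoptosis regulators passed, against 8.1% of all genes: BAD, a BCL2 antagonist (log2 change 0.16, SE 0.045, limma adjusted p = 0.0461), and that call ended under 8 alternatives. The list's median was 0.058. Among 23 damage signalling genes 1 rose and 3 fell, the replication checkpoint genes CLSPN (-0.49), TIMELESS (-0.29) and TOPBP1 (-0.23). CLSPN and TOPBP1 had highest limma adjusted p values over the alternatives of 0.0755 and 0.0577. The kinase genes ATM, ATR, CHEK1 and CHEK2 stood at -0.045, -0.13, -0.057 and -0.093 and did not pass.

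Mitosis genes fell as a block. Of 26 tested, 25 fell, none rose, and the median change was -0.56, against 0.0029 over all genes. PLK1, the kinase that drives entry into and exit from mitosis, had 31.4 and 30.3 FPKM in cisplatin, against 48.3 and 48.7 FPKM in solvent (log2 change -0.65, SE 0.0431, limma adjusted p = 4.18e-05). AURKA, the spindle pole kinase, had 28.2 and 23.6 FPKM in cisplatin, against 40.3 and 41.4 FPKM in solvent (log2 change -0.65, SE 0.0863, limma adjusted p = 0.00105). CCNB2, a B-type cyclin, had 19.7 and 16.7 FPKM in cisplatin, against 27.5 and 28.5 FPKM in solvent (log2 change -0.61, SE 0.0833, limma adjusted p = 0.00124). In each of these genes the cisplatin and solvent groups lay further apart than their replicates. TOP2A, the topoisomerase that untangles chromosomes, had 186 and 169 FPKM in cisplatin, against 269 and 273 FPKM in solvent (log2 change -0.61, SE 0.105, limma adjusted p = 0.00423). DLGAP5, a spindle protein, had 15.99 and 14.2 FPKM in cisplatin, against 22.6 and 24.2 FPKM in solvent (log2 change -0.62, SE 0.0932, limma adjusted p = 0.0021). KIF20A, a cytokinesis kinesin that shares bases with CDC23 and BRD8 on the other strand, had 13.7 and 13.8 FPKM in cisplatin, against 22.6 and 22.2 FPKM in solvent (log2 change -0.68, SE 0.092, limma adjusted p = 0.00118). The range over the list was from -0.68 to -0.27. CDC25C, the phosphatase that activates CDK1, had -0.27 and did not pass. The list's summed level was 834 and 764 FPKM in cisplatin, against 1165 and 1183 FPKM in solvent. PLK1, AURKA, CCNB2, DLGAP5 and KIF20A passed under each of 12 alternatives, and TOP2A had a limma adjusted p of 0.0504 without cisplatin replicate 2. In a bulk sample, fewer dividing cells and less mRNA per dividing cell cannot be told apart.

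Many genes of the last cell cycle phases are known to share a CHR element, TTTGAA, with CCAAT boxes upstream of it, and are held down by the DREAM complex. The PLK1 (chr16:23678639-23678938) and CCNB2 (chr15:59104896-59105195) promoters, both on the plus strand (GRCh38.p14, RefSeq), are shown because both hold a CHR element near the start; matches to TTTGAA and CCAAT on either strand are in capitals.
PLK1: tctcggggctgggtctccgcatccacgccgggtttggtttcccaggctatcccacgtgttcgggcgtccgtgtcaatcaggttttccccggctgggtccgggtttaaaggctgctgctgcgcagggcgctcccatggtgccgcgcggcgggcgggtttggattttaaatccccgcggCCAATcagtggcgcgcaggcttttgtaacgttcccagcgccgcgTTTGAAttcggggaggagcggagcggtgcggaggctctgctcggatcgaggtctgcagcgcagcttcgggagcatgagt
CCNB2: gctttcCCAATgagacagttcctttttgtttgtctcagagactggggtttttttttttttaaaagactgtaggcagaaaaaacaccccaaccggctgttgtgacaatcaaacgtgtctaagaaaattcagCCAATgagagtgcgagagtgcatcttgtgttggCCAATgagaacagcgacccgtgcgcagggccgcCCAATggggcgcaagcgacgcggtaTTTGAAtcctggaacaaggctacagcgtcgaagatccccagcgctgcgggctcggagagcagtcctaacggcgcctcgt
A promoter was in the RefSeq table for 22 of the 26 genes. TTTGAA stood in 15 of them (68.2%), against 15.4% of all promoters, 9.61% of promoters of tested genes, 20.1% of those of genes that fell and 6.75% of those of genes that rose. CCAAT stood in 18 of 22 (81.8%), against 35.7% of all, and both in 14 of 22 (63.6%), against 6.08% of all. Matches of the 2 motifs shared a base in 31 promoters of the table and in 0 of the list.

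Genes of DNA replication fell with them, by less. Of 29 S phase genes 23 fell and none rose, with a median of -0.35. GINS1, a subunit of the replicative helicase, had 19.6 and 19.5 FPKM in cisplatin, against 26.997 and 28.6 FPKM in solvent (log2 change -0.50, SE 0.0587, limma adjusted p = 0.000607). CDC6, which loads the helicase, had 33.4 and 32.4 FPKM in cisplatin, against 44.02 and 46.3 FPKM in solvent (log2 change -0.45, SE 0.0451, limma adjusted p = 0.000228). POLA1, the catalytic subunit of the priming polymerase, had 5.9 and 5.62 FPKM in cisplatin, against 7.87 and 8.23 FPKM in solvent (log2 change -0.45, SE 0.0659, limma adjusted p = 0.0018). All 3 were lower in both cisplatin libraries. GINS2, CHAF1A, a histone chaperone gene, and MCM10 fell with changes of -0.48, -0.48 and -0.45. The helicase genes MCM2, MCM3, MCM4, MCM5, MCM6 and MCM7 all fell, with changes from -0.36 to -0.30. PCNA, the polymerase clamp and also a p53 target, had -0.0072 and did not pass, and neither did LIG1 (-0.05) or TYMS (-0.13). GINS1 and CDC6 passed under each of 12 alternatives, and GINS2, CHAF1A, POLA1 and MCM10 had highest limma adjusted p values over the alternatives of 0.0559, 0.0596, 0.0532 and 0.0577. A fit of the 4 libraries alone left 14 members called. The count of 23 was 20 without cisplatin replicate 1, 14 without cisplatin replicate 2, 17 without solvent replicate 1 and 15 without solvent replicate 2.

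E2F factors are known to bind sites such as TTTCCCGC and TTTGGCGC. Searched on both strands, one or the other was found in 15 of 25 S phase promoters in the table (60%), against 2.31% of all promoters, 6.53% of those of genes that fell and 1.74% of those of genes that rose. The GINS1 promoter (chr20:25407423-25407722, plus strand, GRCh38.p14, RefSeq) belongs to the S phase gene with the largest fall, and its match, on the opposite strand, is in capitals.
GINS1: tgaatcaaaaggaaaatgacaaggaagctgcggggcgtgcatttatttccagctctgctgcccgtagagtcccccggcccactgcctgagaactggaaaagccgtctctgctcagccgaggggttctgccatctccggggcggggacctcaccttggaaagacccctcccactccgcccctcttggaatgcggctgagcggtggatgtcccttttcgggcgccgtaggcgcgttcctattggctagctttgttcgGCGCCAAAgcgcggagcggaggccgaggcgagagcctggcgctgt
A match is a description of letters, and binding was not analysed here.

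Genes that mend crosslinks between strands also fell in part. Of 27 Fanconi anaemia and homologous recombination genes 17 fell and none rose, with a median of -0.33. FANCA, of the core complex that marks crosslinks, had 21.2 and 22.1 FPKM in cisplatin, against 30.9 and 28.6 FPKM in solvent (log2 change -0.45, SE 0.0584, limma adjusted p = 0.000969). BLM, a helicase that dissolves joined strands, had 4.57 and 4.66 FPKM in cisplatin, against 6.61 and 6.45 FPKM in solvent (log2 change -0.46, SE 0.0732, limma adjusted p = 0.00288). FANCB, BARD1, the partner of BRCA1, and XRCC2, a recombination gene, fell with changes of -0.54, -0.47 and -0.43. FANCE, FANCF, FANCL, PALB2, RAD51C and RAD51D, which serve the same pathway, lay between -0.10 and 0.0056 and did not pass. FANCA passed under each of 12 alternatives. The call of FANCB ended without each of the 4 libraries in turn and in the fit of those 4 alone (highest limma adjusted p 0.0988). BARD1, BLM and XRCC2 had highest limma adjusted p values over the alternatives of 0.0596, 0.057 and 0.0733, each in the fit of the 4 libraries alone or without cisplatin replicate 2. FANCA shares bases with ZNF276 on the other strand. The count of 17 was 12 without cisplatin replicate 1 and 8 without each of the other libraries, 5 in a fit of the 4 libraries alone and 11 without a filter on low values.

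Crosslinks within a strand are the substrate of nucleotide excision repair. Of 17 of its genes none rose or fell in the limma test, against 8.1% of all genes, a share at which so short a list holds few calls, so nothing is read from this count; 4 had an unadjusted p under 0.05 (3 above 0 and 1 below). The list ran from -0.13 (GTF2H2) to 0.22 (ERCC5) with a median of -0.013. DDB1, which recognises damage with DDB2, had 219 and 226 FPKM in cisplatin, against 218 and 223 FPKM in solvent. Of 9 translesion polymerase genes, which copy past lesions, 2 fell: POLQ, a polymerase that joins broken ends, had 6.43 and 6.12 FPKM in cisplatin, against 8.89 and 9.53 FPKM in solvent (log2 change -0.52, SE 0.0629, limma adjusted p = 0.000733), and RAD18, which recruits translesion polymerases, had 15.4 and 14.6 FPKM in cisplatin, against 18.2 and 19.5 FPKM in solvent (log2 change -0.31, SE 0.0731, limma adjusted p = 0.0209). POLK, REV1, REV3L and POLI lay between -0.07 and 0.076 and did not pass. Of 9 topoisomerase genes and genes that clear their adducts, TDP2, which frees DNA ends from trapped topoisomerase 2, rose (76.3 and 74.4 FPKM in cisplatin, against 58.99 and 60.98 FPKM in solvent; log2 change 0.33, SE 0.0478, limma adjusted p = 0.0018), and TDP1, its counterpart for topoisomerase 1, fell (7.08 and 7.27 FPKM in cisplatin, against 8.82 and 8.44 FPKM in solvent; log2 change -0.25, SE 0.063, limma adjusted p = 0.0309). TOP1 had 42.7 and 41.7 FPKM in cisplatin, against 44.2 and 48.3 FPKM in solvent and did not pass (log2 change -0.13, SE 0.0425, limma adjusted p = 0.086), though it did after quantile normalization (-0.15, limma adjusted p = 0.0431) and without solvent replicate 1 (-0.19). TDP2 and POLQ passed under each of 12 alternatives. TDP1 had a highest limma adjusted p of 0.175 and RAD18 of 0.16.

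**Figure D2:**
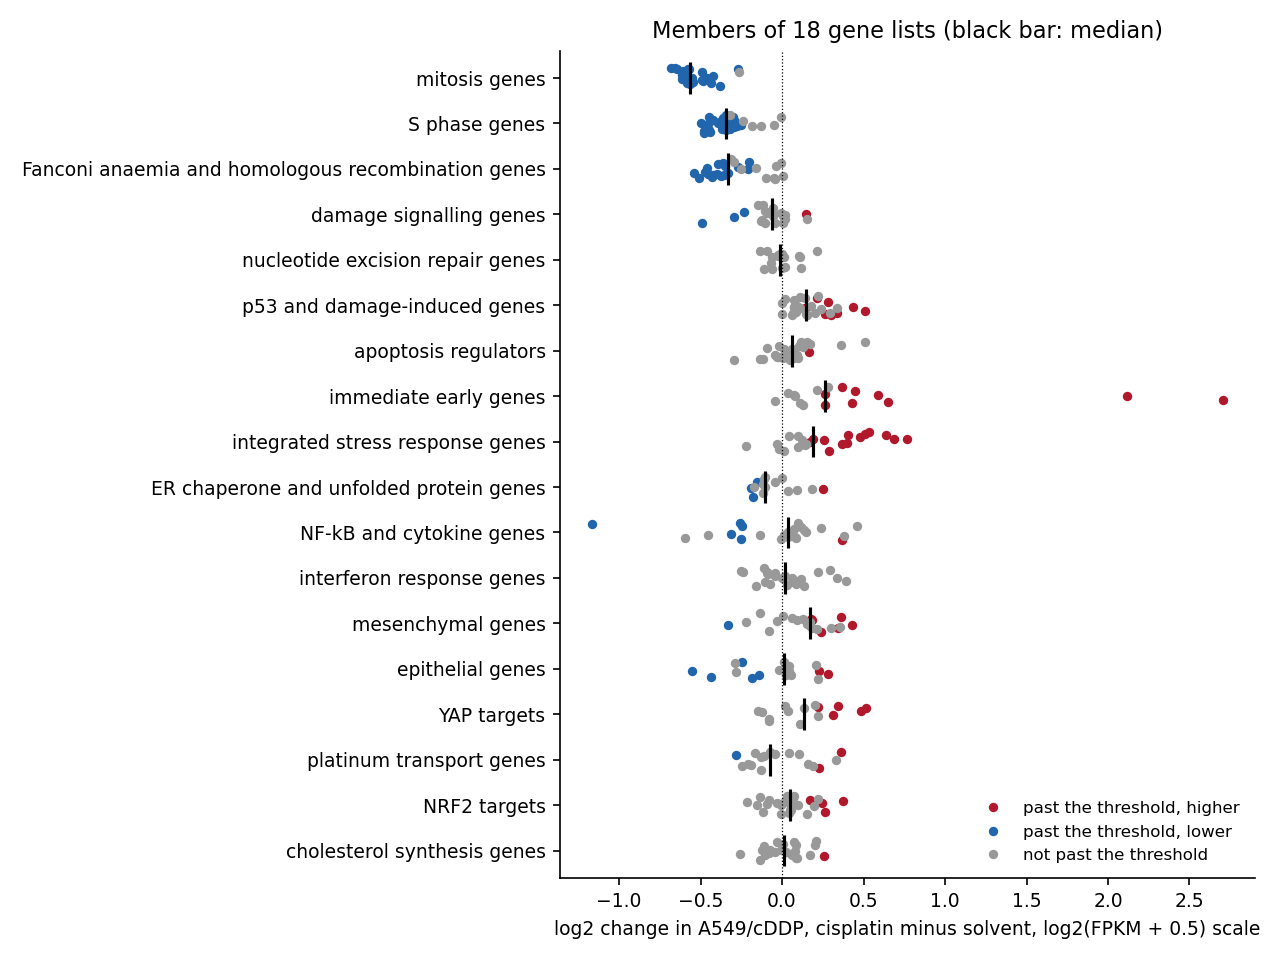
Change in A549/cDDP, cisplatin minus solvent on the log2(FPKM + 0.5) scale, for each tested member of 18 gene lists; red points rose, blue points fell, grey points did not pass limma with an adjusted p of 0.05, and black bars are list medians. Mitosis genes lie around -0.56, S phase genes around -0.35 and nucleotide excision repair genes around 0, while FOS and EGR1 stand far to the right of every other member.

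Inflammatory genes changed in part, in both directions. LCN2, lipocalin 2, a secreted protein that binds iron-carrying siderophores and is induced through NF-kB, had 4.31 and 3.82 FPKM in cisplatin, against 10.3 and 9.24 FPKM in solvent (log2 change -1.17, SE 0.0937, limma adjusted p = 9.31e-05), at least 2-fold lower. Of 23 NF-kB and cytokine genes 5 fell and 1 rose, against 4.55% lower and 3.55% higher over all genes. The list's median was 0.039. TNFAIP2 had 404 and 390.2 FPKM in cisplatin, against 493 and 494 FPKM in solvent (log2 change -0.31, SE 0.0367, limma adjusted p = 0.000599). The chemokine genes CXCL1 (134 and 117 FPKM in cisplatin, against 146 and 151 FPKM in solvent), CXCL5 (262 and 239 FPKM in cisplatin, against 289 and 306 FPKM in solvent) and CCL2 (88.6 and 79.4 FPKM in cisplatin, against 97.9 and 103 FPKM in solvent) fell by 0.24, 0.25 and 0.26 on the log2 scale. CXCL2, a close relative of CXCL1, rose, with 39.7 and 38.7 FPKM in cisplatin, against 30.1 and 30.4 FPKM in solvent (log2 change 0.37, SE 0.0574, limma adjusted p = 0.00259). CXCL8, IL6, NFKBIA and TNFAIP3, which NF-kB is known to raise, lay between -0.0046 and 0.088 and did not pass. LCN2, TNFAIP2 and CXCL2 passed under each of 12 alternatives, while CXCL1, CXCL5 and CCL2 had highest limma adjusted p values of 0.127, 0.0872 and 0.152. None of 25 interferon response genes passed in limma, against 8.1% of all genes, and 1 had an unadjusted p under 0.05. The list ran from -0.25 (IFIT1) to 0.39 (IFI27). TRIM31, a ubiquitin ligase gene of epithelia, fell at least 2-fold, with 1.28 and 0.888 FPKM in cisplatin, against 3.19 and 3.38 FPKM in solvent (log2 change -1.27, SE 0.134, limma adjusted p = 0.000321).

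Targets of YAP, a transcriptional coactivator that reads cell tension, rose in part. Of 15 YAP targets 5 rose and none fell (median 0.13), against 3.55% higher and 4.55% lower over all genes. The matricellular protein genes CCN1 and CCN2 had 52.5 and 51.8 FPKM in cisplatin, against 35.7 and 38.6 FPKM in solvent (log2 change 0.49, SE 0.0473, limma adjusted p = 0.000191), and 14.5 and 14.7 FPKM in cisplatin, against 9.69 and 10.5 FPKM in solvent (log2 change 0.51, SE 0.0676, limma adjusted p = 0.00104). AJUBA, AMOTL2 and NT5E rose by 0.34, 0.31 and 0.22. Among 15 BMP and TGF-beta targets 3 rose and 3 fell. SMAD7, the inhibitory SMAD, and LTBP2 rose (0.40 and 0.26), while ATOH8, BAMBI and ID1, which BMP signals raise, fell (-0.77, -0.29 and -0.28). The median of the list was -0.007. Of these 5 calls that of BAMBI held throughout, while SMAD7, LTBP2, ATOH8 and ID1 had highest limma adjusted p values over the alternatives of 0.054, 0.172, 0.125 and 0.149, all 4 being lost without cisplatin replicate 2. Of 22 mesenchymal genes 6 rose and 1 fell (median 0.17). MMP2, a matrix metalloproteinase, had 76.6 and 76.9 FPKM in cisplatin, against 61.1 and 59.7 FPKM in solvent (log2 change 0.34, SE 0.0569, limma adjusted p = 0.00362). TAGLN, ZEB2, COL6A1, CDH2 and FSTL1 rose by 0.43, 0.36, 0.24, 0.18 and 0.18. FN1, fibronectin, had 223 and 213 FPKM in cisplatin, against 282 and 267 FPKM in solvent and fell (log2 change -0.33, SE 0.0474, limma adjusted p = 0.0016). CCN1, CCN2, BAMBI, MMP2 and FN1 passed under each of 12 alternatives. TAGLN, ZEB2, CDH2, AMOTL2 and NT5E missed without each of cisplatin replicate 2, solvent replicate 1 and solvent replicate 2, with highest limma adjusted p values of 0.193, 0.196, 0.173, 0.175 and 0.257. AJUBA and COL6A1 had highest limma adjusted p values over the alternatives of 0.0617 and 0.0695.

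On the epithelial side 5 of 17 genes fell and 2 rose, against 4.55% lower and 3.55% higher over all genes. LAMA3, a laminin chain of the epithelial basement membrane, had 51.9 and 46.8 FPKM in cisplatin, against 72.1 and 72.8 FPKM in solvent (log2 change -0.55, SE 0.0637, limma adjusted p = 0.000594). ELF3, an epithelial transcription factor whose start overlaps the antisense gene ELF3-AS1, had 28.001 and 25.1 FPKM in cisplatin, against 37.04 and 35.2 FPKM in solvent (log2 change -0.44, SE 0.058, limma adjusted p = 0.00107). ELF3-AS1, for which the RefSeq gene table gives the name SCAT7, the long noncoding RNA the study is about, had 2.41 and 2.41 FPKM in cisplatin, against 2.89 and 3.79 FPKM in solvent and did not pass (log2 change -0.39, SE 0.166, limma adjusted p = 0.192). They are transcribed towards opposite sides of shared bases. How the counting treated strand is not given in the sources used here, so reads from the overlap cannot be told apart. The keratin genes KRT8 and KRT18, which overlap on opposite strands in the annotation and have pseudogenes, had 1626 and 1547 FPKM in cisplatin, against 1800.3 and 1801 FPKM in solvent, and 658 and 599 FPKM in cisplatin, against 758 and 734 FPKM in solvent. They and KRT19 fell by 0.18, 0.25 and 0.14 on the log2 scale. CLDN1, a tight junction gene, and JUP, plakoglobin, rose by 0.23 and 0.28, and CDH1 and EPCAM did not pass (-0.29 and 0.022). LAMA3, ELF3 and CLDN1 passed under each of 12 alternatives; KRT8, KRT18 and JUP had highest limma adjusted p values of 0.161, 0.123 and 0.192. HNRNPK and YBX1, which encode RNA-binding proteins, did not pass, with changes of -0.062 (limma adjusted p = 0.447) and -0.087 (limma adjusted p = 0.231).

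Genes of retinoid supply and sensing fell in part. DHRS3, which turns retinal back to retinol and is itself raised by retinoic acid, had 28.1 and 25.1 FPKM in cisplatin, against 47.6 and 47.5 FPKM in solvent (log2 change -0.83, SE 0.0523, limma adjusted p = 4.18e-05). RARB, a retinoic acid receptor and classic retinoid target, had 8.46 and 6.29 FPKM in cisplatin, against 11.4 and 11.8 FPKM in solvent (log2 change -0.63, SE 0.104, limma adjusted p = 0.00346). STRA6, a retinol transporter, had 68.9 and 68.5 FPKM in cisplatin, against 91.2 and 87.3 FPKM in solvent (log2 change -0.37, SE 0.0598, limma adjusted p = 0.00288). All 3 were lower in both cisplatin libraries. With ALDH1A3 (-0.21), which makes retinoic acid, 4 of 15 retinoid genes fell, 1 rose, the receptor gene RARA (0.25), and the median was -0.15. Over all genes 4.55% fell and 3.55% rose. DHRS3 and STRA6 passed under each of 12 alternatives, and RARB missed only in the fit of the 4 libraries alone (limma adjusted p = 0.0779). RARA and ALDH1A3 had highest limma adjusted p values over the alternatives of 0.133 and 0.164.

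Genes tied to platinum handling changed in part. Of 17 platinum transport genes 2 rose and 1 fell, against 3.55% higher and 4.55% lower over all genes. LRRC8C and LRRC8A, subunits of the volume-regulated anion channel through which cisplatin can enter, had 8.2 and 8.76 FPKM in cisplatin, against 6.47 and 6.48 FPKM in solvent (log2 change 0.36, SE 0.0591, limma adjusted p = 0.00317), and 44.4 and 49.7 FPKM in cisplatin, against 40.7 and 39.4 FPKM in solvent (log2 change 0.23, SE 0.0532, limma adjusted p = 0.0225). ABCC4, an export pump, fell (48.9 and 43.9 FPKM in cisplatin, against 55.4 and 57.6 FPKM in solvent; log2 change -0.28, SE 0.0765, limma adjusted p = 0.0413). The copper transporter genes SLC31A1, ATP7A and ATP7B had -0.11, -0.25 and -0.041 and did not pass. Of 6 metallothionein and zinc response genes tested (of 10 listed) 3 rose: MT2A, which binds metals through its cysteines, had 449 and 452 FPKM in cisplatin, against 379 and 389 FPKM in solvent (log2 change 0.23, SE 0.0596, limma adjusted p = 0.0351), MT1X had 2.5 and 1.94 FPKM in cisplatin, against 1.27 and 1.33 FPKM in solvent (log2 change 0.59, SE 0.156, limma adjusted p = 0.0382), and the zinc exporter SLC30A1 rose by 0.23. Calls of MT2A, MT1X and SLC30A1 ended when 1 of several libraries was left out, with highest limma adjusted p values of 0.179, 0.21 and 0.203, as did those of LRRC8A (0.18) and ABCC4 (0.265). NRF2, the transcription factor of the oxidant response, is constantly active in A549. Of 26 targets 4 rose and none fell (median 0.046). HMOX1, heme oxygenase, had 50.3 and 53.7 FPKM in cisplatin, against 38.9 and 40.96 FPKM in solvent (log2 change 0.38, SE 0.0394, limma adjusted p = 0.000317), and FTH1, the ferritin heavy chain, had 4141 and 4055 FPKM in cisplatin, against 3462 and 3365 FPKM in solvent (log2 change 0.26, SE 0.0475, limma adjusted p = 0.00555), with pseudogenes that can share its reads. CYP4F11 and the cystine importer gene SLC7A11 rose by 0.24 and 0.17. NQO1, TXNRD1, GCLM and GCLC lay between -0.12 and 0.075 and did not pass. Of 12 iron handling genes 3 fell, LCN2, the plasma ferroxidase CP (-0.52) and the transferrin receptor TFRC (-0.20), and 1 rose, FTH1. LRRC8C, FTH1, CYP4F11, SLC7A11, CP and TFRC had highest limma adjusted p values over the alternatives of 0.0745, 0.127, 0.0598, 0.174, 0.111 and 0.25.

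In other lists a few members passed in each direction, against 3.55% higher and 4.55% lower over all genes. Of 19 hypoxia and glycolysis genes 2 fell, PFKFB3 and LDHA (-0.37 and -0.26), and 2 rose, PFKFB4 and NDRG1 (0.40 and 0.17), so the paralogs PFKFB3 and PFKFB4, which set the level of a fructose bisphosphate that activates glycolysis, went opposite ways. PFKFB3 had 70.99 and 69.6 FPKM in cisplatin, against 90.3 and 91.8 FPKM in solvent, and PFKFB4 had 71.97 and 82.9 FPKM in cisplatin, against 59.5 and 57.3 FPKM in solvent. Of 24 cholesterol synthesis genes only TM7SF2 passed (0.26). In the IGF axis, of 16 genes IGF2 and IGFBP7 rose (0.65 and 0.24) and IGFBP3 and IRS1 fell (-0.48 and -0.18); IGFBP3, a carrier of IGF in the medium, had 96.8 and 84.8 FPKM in cisplatin, against 130.3 and 124 FPKM in solvent (log2 change -0.48, SE 0.051, limma adjusted p = 0.000319). Of 12 FGF receptor and cyclin D genes FGFR4 and FGFR1 fell (-0.32 and -0.23) and FGF2 rose (0.20). Of 9 histone genes found in these oligo(dT) libraries the linker histone H1-2 and H2AC6 rose (0.46 and 0.25), and the variant H2AZ1 fell (-0.29). Of 13 mitochondrial transcripts MT-ND6 fell, with 1180.2 and 1436 FPKM in cisplatin, against 1763 and 1776 FPKM in solvent (log2 change -0.44, SE 0.0857, limma adjusted p = 0.00827); it is encoded on the light strand, as is the transfer RNA MT-TP, which had 124 and 169.5 FPKM in cisplatin, against 228 and 237 FPKM in solvent (log2 change -0.68, SE 0.147, limma adjusted p = 0.0149). The call of MT-ND6 ended without either solvent library (highest limma adjusted p 0.0835), as did that of MT-TP (0.101). Most other calls in these lists rest on single libraries too. LDHA, PFKFB4, NDRG1 and TM7SF2 had highest limma adjusted p values over the alternatives of 0.181, 0.0744, 0.141 and 0.241. IGF2, IGFBP7 and IRS1 had highest limma adjusted p values over the alternatives of 0.0747, 0.126 and 0.253. FGFR4, FGFR1, FGF2, H2AC6 and H2AZ1 had highest limma adjusted p values over the alternatives of 0.146, 0.142, 0.127, 0.0856 and 0.147. All of these were lost without 1 or more single libraries, and PFKFB3, IGFBP3 and H1-2 passed under each of 12 alternatives. The summed level of the 13 was 58440.0 and 63009 FPKM in cisplatin, against 63915 and 62897 FPKM in solvent, lowest in cisplatin replicate 1.

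Of the 17 genes that changed at least 2-fold, 8 had under 25 reads in each of the 4 libraries and 2 had no gene model. FOS, EGR1, LCN2 and TRIM31 are described above. GPC6, a glypican of the cell surface, had 0.997 and 0.611 FPKM in cisplatin, against 2.08 and 2.3 FPKM in solvent (log2 change -1.06, SE 0.144, limma adjusted p = 0.00124). LINC01629, a long intergenic RNA on chromosome 14, 76959638 to 76965802 (hg38), had 10.5 and 14.3 FPKM in cisplatin, against 4.22 and 4.61 FPKM in solvent (log2 change 1.37, SE 0.146, limma adjusted p = 0.000339). The processed pseudogene AC007686.1 begins 2880 bases beyond its end and had 6.77 and 7.12 FPKM in cisplatin, against 2.62 and 3.06 FPKM in solvent (log2 change 1.16, SE 0.157, limma adjusted p = 0.00119). This neighbouring pair rose together, though reads of a pseudogene can come from its parent gene. The other rises were MIR6746 in FADS3 (about 10 and 12 reads in cisplatin, against 2 and 3 in solvent), SNORD9 in CHD8 (about 9 and 8 reads in cisplatin, against 1 and 1 in solvent), a Y_RNA copy in TMEM165 (1.65), AC012186.2 in VPS35 (1.12), MIR3934 and AC062037.2, which overlap UQCC2 and ELMOD3 on the other strand (1.13 and 1.25), LINC02990 (1.11) and the identifier ENSG00000221595 (1.77). Small RNA genes inside a host gene can hold reads of that host, and with so few reads the fitted change depends on the 0.5 FPKM added, so these values are uncertain. RNU1-103P in EMC8 had 0.816 and 1.55 FPKM in cisplatin, against 2.48 and 3.13 FPKM in solvent, and ENSG00000216168 was listed at 0 in both cisplatin libraries, against 1.78 and 1.04 FPKM in solvent. FOS, EGR1, LINC01629, AC007686.1, LCN2 and TRIM31 passed under each of 12 alternatives, MIR6746 and ENSG00000216168 under each of the 11 that kept them (a filter at a mean of 2 FPKM removed both), and GPC6 missed in the fit of the 4 libraries alone (limma adjusted p = 0.0531). Calls of the other 8 ended when 1 or more libraries were left out.

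Among the 15 largest rises with at least 5 FPKM, those not yet named included SHC2, an adaptor of receptor kinases (0.69), MAP1LC3A, an autophagosome protein (0.63), SPX, a peptide hormone (0.62), YPEL3, which p53 is known to raise (0.61), CLDN14-AS1 (0.67), the pseudogene AC239859.6 (0.73) and the let-7 hairpin gene MIRLET7D (0.74), whose 12 to 29 reads cannot be told from those of its host transcript. MAP1LC3A had 9.59 and 9.23 FPKM in cisplatin, against 5.69 and 6.13 FPKM in solvent (log2 change 0.63, SE 0.0717, limma adjusted p = 0.000537) and of these genes was the one that passed under each of 12 alternatives. IGF2, also among the 15, had 5.09 and 6.59 FPKM in cisplatin, against 3.62 and 3.4 FPKM in solvent (log2 change 0.65, SE 0.12, limma adjusted p = 0.00635). The 15 largest falls included AGFG2, an HIV Rev-binding protein relative, with 5.55 and 5.74 FPKM in cisplatin, against 10.9 and 10.3 FPKM in solvent (log2 change -0.85, SE 0.0785, limma adjusted p = 0.000161), PKDCC, a secreted kinase (-0.85), AL121748.2, antisense to NRP1 (-0.82), DEPDC1B (-0.73) and PIF1, a helicase of G-quadruplexes and telomeres, with 3.19 and 3.71 FPKM in cisplatin, against 5.87 and 6.08 FPKM in solvent (log2 change -0.72, SE 0.0851, limma adjusted p = 0.000637). CNTN1, a neural adhesion protein, had 49.8 and 39.2 FPKM in cisplatin, against 77.7 and 79.9 FPKM in solvent (log2 change -0.83, SE 0.119, limma adjusted p = 0.00166). FRAS1, of the epithelial basement membrane, had 12.3 and 11.001 FPKM in cisplatin, against 20.1 and 20.7 FPKM in solvent (log2 change -0.79, SE 0.0745, limma adjusted p = 0.00017). LTBP1, which anchors latent TGF-beta, had 7.28 and 6.83 FPKM in cisplatin, against 12.2 and 12.2 FPKM in solvent (log2 change -0.75, SE 0.0833, limma adjusted p = 0.000449). THSD4, a matrix protein, had 8.19 and 7.29 FPKM in cisplatin, against 12.9 and 13.3 FPKM in solvent (log2 change -0.73, SE 0.0676, limma adjusted p = 0.000163), and IMMP2L, a mitochondrial peptidase, had 3.87 and 3.46 FPKM in cisplatin, against 6.2 and 7.15 FPKM in solvent (log2 change -0.78, SE 0.182, limma adjusted p = 0.0208). These last 5 genes have in common that they span long stretches of genome: CNTN1 380 kb, FRAS1 487 kb, LTBP1 453 kb, THSD4 686 kb and IMMP2L 899 kb. None of the 15 largest rises spanned 300 kb, but only 491 of the 17198 genes tested had an annotated span that long, so nothing is read from this. AGFG2, CNTN1, FRAS1, LTBP1, THSD4 and PIF1 passed under each of 12 alternatives, and PKDCC, AL121748.2, DEPDC1B and IMMP2L had highest limma adjusted p values over the alternatives of 0.0507, 0.0791, 0.057 and 0.148.

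Across all tested genes the change fell with genomic span. Genes under 10 kb (n = 5210) had a median change of 0.018, those of 10 to 30 kb (n = 4256) 0.025, those of 30 to 100 kb (n = 4761) 0.0049, those of 100 to 300 kb (n = 2226) -0.049 and those of at least 300 kb (n = 491) -0.19. The share that fell was 1.67%, 3.36%, 4.79%, 8.04% and 29.1% in that order, and the share that rose was 3.44%, 4.91%, 3.44%, 2.29% and 1.02%. In the group of at least 300 kb 143 genes fell and 5 rose, against 4.55% lower and 3.55% higher among all genes. With protein-coding genes alone the longest group held 448 genes, of which 31.7% fell. The 143 became 108 without cisplatin replicate 1, 57 without cisplatin replicate 2, 67 without solvent replicate 1, 66 without solvent replicate 2 and 40 in a fit of the 4 libraries alone. Other features that go with gene span were not compared.

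**Figure D3:**
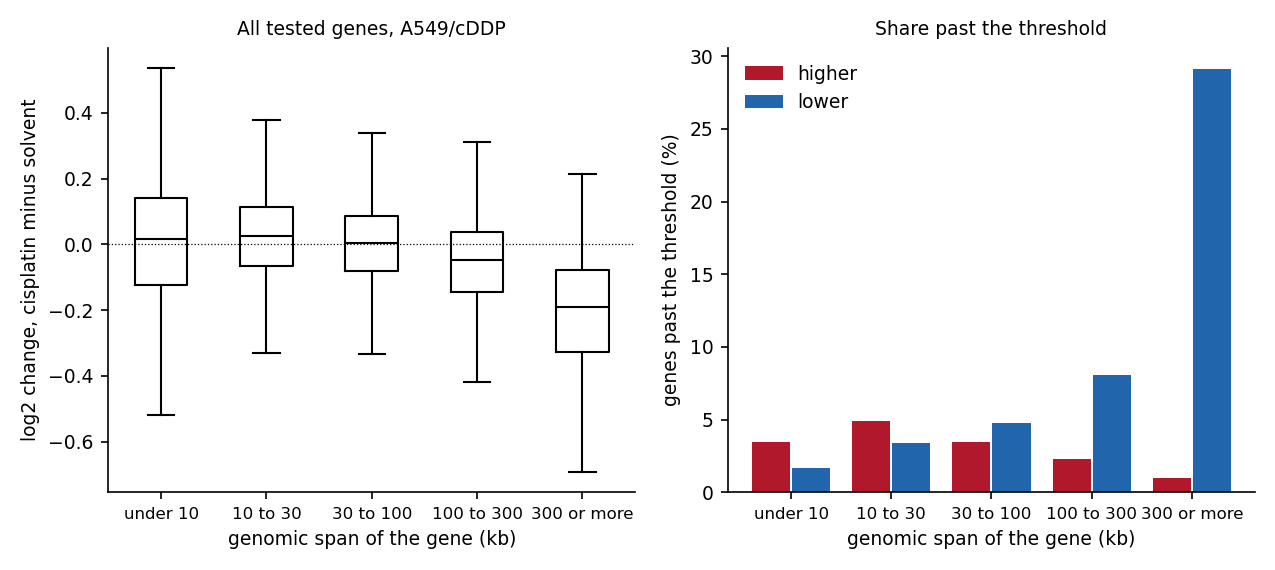
Left, change in A549/cDDP (cisplatin minus solvent, log2(FPKM + 0.5) scale) for all tested genes grouped by genomic span in kb; boxes are quartiles with the median, whiskers reach the furthest gene within 1.5 box lengths, and genes beyond them are not drawn. Right, percent of each group that rose (red) or fell (blue) with a limma adjusted p under 0.05: the share that fell grows to 29.1% among genes of at least 300 kb, and the share that rose shrinks to 1.02%.

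The same contrast was measured a second time in A549/cDDP, after transfection with the control gapmer, in libraries of their own. By the labels it differs from the untransfected contrast by the transfection and the gapmer. Other differences between these libraries were not tested. There 435 genes passed (2.53%), 288 higher (1.67%) and 147 lower (0.855%); the higher share of calls was 66.2%, and 52.6% with median ratio scaling. Of the 611 genes that rose in untransfected cells, 77 also rose with the control gapmer, 12.6% of the 611 and 26.7% of the 288, and 9 fell. Of the 782 that fell, 82 also fell, 10.5% of the 782 and 55.8% of the 147, and 11 rose. By direction alone, 65.6% of the 611 were above 0 with the control gapmer, against 57.4% of all genes, and 71.6% of the 782 were below 0, against 42.5% of all genes. Over all genes the changes of both contrasts correlated at Pearson's r = 0.105 and Spearman's rho = 0.134, a description over genes, which are not independent. When 1 control gapmer library was left out, the 435 became 140 and 137 without cisplatin replicates 1 and 2, and 179 and 140 without solvent replicates 1 and 2.

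The count of members past the test differed between both contrasts in several lists. Mitosis genes had a median of -0.56 untransfected and -0.29 with the control gapmer, with 25 and 9 of 26 lower. The difference of effects passed for none of the 26 in limma, though 12 had an unadjusted p under 0.05. p53 and damage-induced genes had medians of 0.15 and 0.48, with 9 and 27 of 30 higher. Fanconi anaemia and homologous recombination genes had medians of -0.33 and -0.0061, with 17 and 0 of 27 lower; with the control gapmer none was lower at an unadjusted p under 0.05 either. S phase genes had medians of -0.35 and -0.11, with 23 and 2 of 29 lower. Immediate early genes had medians of 0.26 and -0.016, with 9 and 1 of 17 higher, and integrated stress response genes had 0.19 and 0.064, with 13 and 2 of 23 higher. The test of the difference of effects, untransfected minus control gapmer, passed for 324 genes (1.88%), 127 with a higher response in untransfected cells (0.738%) and 197 with a lower one (1.15%). The higher share of these calls was 39.2%, and 57.8% with median ratio scaling. The 324 became 329 without the untransfected cisplatin replicate 1 and 110 to 144 without any one of the other 7 libraries. Among list members it passed for 13 p53 genes (all lower in untransfected cells), 6 Fanconi anaemia and homologous recombination genes and 3 S phase genes (all lower), and 3 immediate early and 4 integrated stress response genes (all higher). It passed for 113 of the 611 rises and for 134 of the 782 falls. The 611 and 782 were chosen on the untransfected effect, which is part of each difference, so these counts are no separate support.

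The rises of FOS and EGR1 were not seen with the control gapmer. There FOS had 3.27 and 2.31 FPKM in cisplatin, against 3.75 and 4.85 FPKM in solvent, and EGR1 had 4.66 and 3.29 FPKM in cisplatin, against 3.58 and 5.48 FPKM in solvent. Neither passed there, and the differences of effects were 3.26 (SE 0.272, limma adjusted p = 0.000223) and 2.28 (SE 0.268, limma adjusted p = 0.00154). In solvent FOS and EGR1 were lower in untransfected cells, at 0.593 and 0.692 FPKM for FOS, than with the control gapmer, and in cisplatin FOS was higher; these levels were not tested. LCN2 had 25.6 and 27.2 FPKM in cisplatin, against 25.003 and 26.3 FPKM in solvent with the control gapmer, with a difference of -1.21 (SE 0.132, limma adjusted p = 0.00107). TRIM31 had 9.51 and 10.95 FPKM in cisplatin, against 8.06 and 8.87 FPKM in solvent there, with a difference of -1.52 (SE 0.189, limma adjusted p = 0.00215). LCN2 and TRIM31 did not pass with the control gapmer, where their levels in all 4 libraries were above those of untransfected cells. CDKN1A went the other way: with the control gapmer it had 447 and 449 FPKM in cisplatin, against 266 and 269 FPKM in solvent (log2 change 0.74, SE 0.0266, limma adjusted p = 3.12e-08), a larger rise than untransfected (difference -0.45, limma adjusted p = 0.000223). MDM2 had 248 and 273 FPKM in cisplatin, against 165 and 171 FPKM in solvent and rose there (log2 change 0.63, SE 0.0657, limma adjusted p = 0.000289; difference -0.55, limma adjusted p = 0.0112). Other genes fell in both. PLK1 had 73.4 and 72.2 FPKM in cisplatin, against 111 and 106 FPKM in solvent (log2 change -0.57, SE 0.0431, limma adjusted p = 2.85e-05). GPC6 and PIF1 fell in both, by 1.06 and 0.72 untransfected and by 1.24 and 1.04 with the control gapmer, on the log2 scale. So did KIF20A, FRAS1, LTBP1, THSD4 and IMMP2L (-0.63, -0.34, -0.39, -0.36 and -0.93 with the control gapmer). CNTN1, AGFG2, DHRS3, PKDCC and DEPDC1B, also among the largest falls, did not pass with the control gapmer (-0.22, 0.16, -0.026, -0.31 and -0.27). Nor did AL121748.2, ATOH8 and MT-TP (0.067, -0.081 and 0.013). Of these, the difference passed only for AGFG2 (-1.01, limma adjusted p = 0.00107) and DHRS3 (-0.80, limma adjusted p = 0.000391). Genes of at least 300 kb had a median of -0.19 untransfected and -0.12 with the control gapmer.

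**Figure D4:**
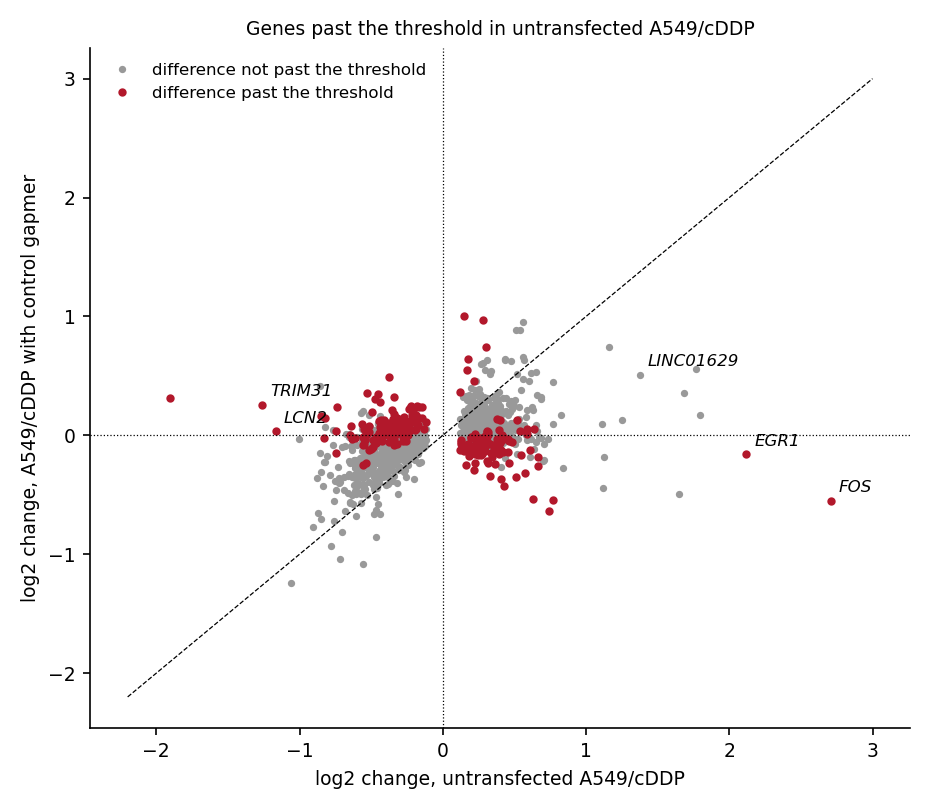
Change with cisplatin for the 1393 genes that passed in untransfected A549/cDDP (x axis) and the change of the same genes with the control gapmer (y axis), both on the log2(FPKM + 0.5) scale; red points are genes whose difference of effects passed limma with an adjusted p of 0.05, and the dashed line marks equal changes. FOS lies at 2.71 and -0.55 and EGR1 at 2.12 and -0.16. The x values chose the points.

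The parental line was compared to see which of these changes differ from those of cells that were not selected for resistance. In A549 10393 genes passed (60.4%), 33.3% higher and 27.1% lower. Of the 611 rises of A549/cDDP 398 also rose in A549 (65.1% of the 611 and 6.95% of the 5729 that rose in A549) and 110 fell, and of the 782 falls 617 also fell (78.9% of the 782 and 13.2% of the 4664 that fell in A549) and 80 rose. The test of the difference of effects, A549/cDDP minus A549, passed for 8088 genes (47%), with a higher response in A549/cDDP for 21.5% of genes and a lower one for 25.6%. The higher share of these calls was 45.6%, and 53.1% with median ratio scaling. It passed for 456 of the 611 rises, in 177 of which the response was higher in A549/cDDP, and for 652 of the 782 falls, in 140 of which the response was lower in A549/cDDP. Among the changes whose difference passed, the smaller response was more often that of A549/cDDP. The 611 and 782 were chosen on the A549/cDDP effect, which is part of each difference. Mitosis genes had medians of -0.56 in A549/cDDP and -2.19 in A549, S phase genes -0.35 and -1.94, p53 and damage-induced genes 0.15 and 2.46, and genes of at least 300 kb -0.19 and -0.70, with 29.1% and 69.5% of those long genes lower. All 30 p53 genes responded less in A549/cDDP, and 25 of 26 mitosis genes fell less. KIF20A was the exception, with changes of -0.68 and -0.31. Starting levels in solvent were unlike. CDKN1A averaged 577 FPKM in A549/cDDP and 84.2 FPKM in A549, MDM2 291 and 57.7 FPKM, and PLK1 48.5 and 163 FPKM. For these genes the A549/cDDP solvent level thus lay on the side to which cisplatin moved A549. These levels were not tested, nor was their part in the difference of effects.

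Some genes went opposite ways in both lines. In A549 FOS had 13.1 and 10.7 FPKM in cisplatin, against 54.8 and 47.7 FPKM in solvent, and it fell (log2 change -2.07, SE 0.193, limma adjusted p = 1.21e-06), so the difference of effects was 4.78 (SE 0.272, limma adjusted p = 3.83e-08). EGR1 had 6.41 and 5.15 FPKM in cisplatin, against 23.2 and 18.8 FPKM in solvent in A549, with a difference of 3.90 (SE 0.268, limma adjusted p = 1.81e-07). The 2 lines also differed in solvent, where A549 held far more FOS and EGR1. JUNB, KLF6, IER2 and ZFP36 rose in A549/cDDP and fell in A549 (-0.55, -1.13, -0.66 and -0.37 there); ATF3 rose in both, by 0.65 in A549/cDDP and 3.52 in A549. LCN2 had 23.1 and 25.9 FPKM in cisplatin, against 7.86 and 6.79 FPKM in solvent in A549, where it rose (log2 change 1.68, SE 0.0937, limma adjusted p = 9.99e-09; difference -2.84, limma adjusted p = 7.3e-09). TRIM31 likewise had 13.7 and 13.1 FPKM in cisplatin, against 4.97 and 4.49 FPKM in solvent (difference -2.68, limma adjusted p = 2.26e-07). Of the NF-kB and cytokine genes 22 of 23 rose in A549, against 1 in A549/cDDP, and the response was lower in A549/cDDP for 20. ELF3 also fell in A549/cDDP and rose in A549 (-0.44 and 0.80; difference -1.24, limma adjusted p = 1.31e-07), and DHRS3 had -0.83 and 0.51. TRIB3, ASNS and MTHFD2 had 0.64, 0.41 and 0.40 in A549/cDDP and 0.43, -0.049 and 0.23 in A549, while DDIT3 and CHAC1 had 0.53 and 0.77 in A549/cDDP and 3.997 and 2.35 in A549. TRIB3 thus rose in both lines, and its difference of effects did not pass (0.21, limma adjusted p = 0.16). LINC01629 rose in both lines, by 1.37 in A549/cDDP and 4.61 in A549 (difference -3.24, limma adjusted p = 9.59e-08), and AC007686.1 beside it by 1.16 and 4.19.

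**Figure D5:**
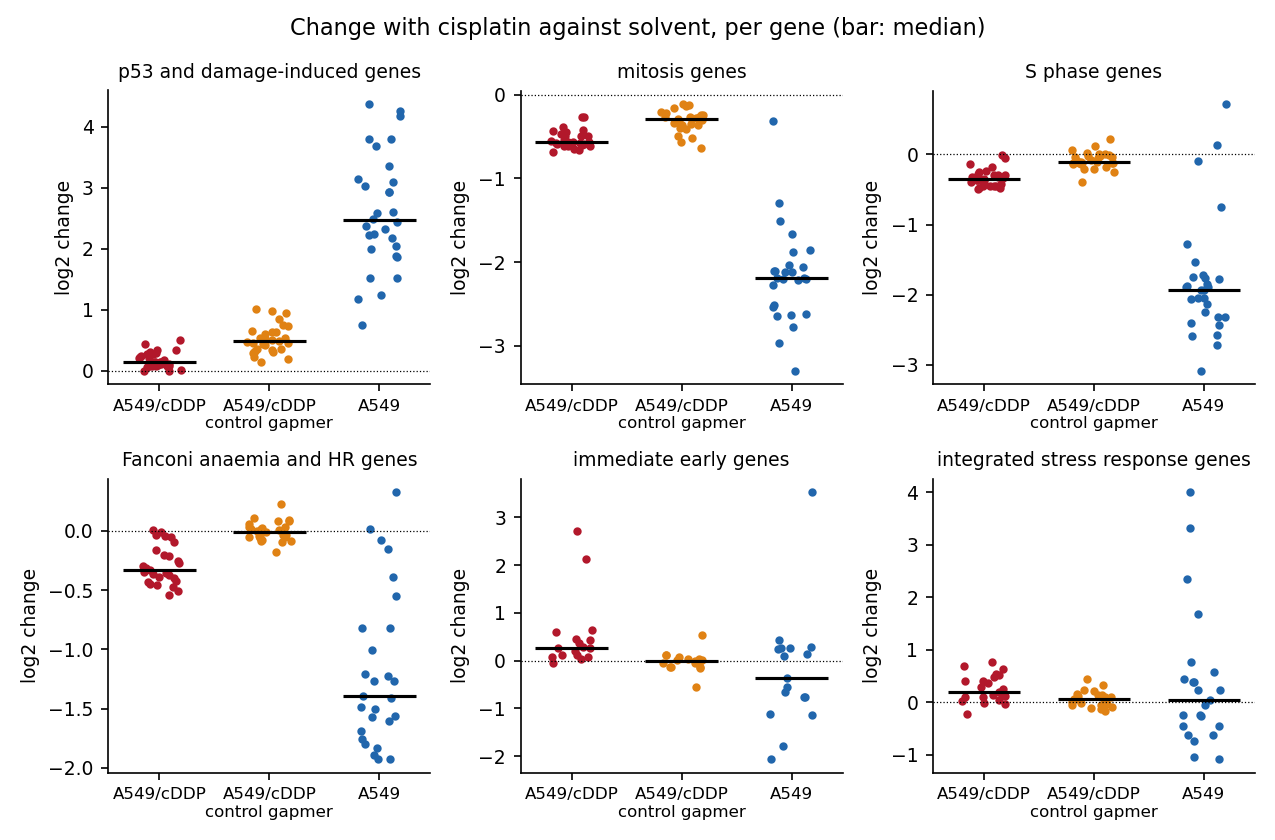
Change with cisplatin (log2(FPKM + 0.5) scale) of each tested member of 6 gene lists in untransfected A549/cDDP, in A549/cDDP with the control gapmer and in A549; points are genes, bars are medians, and each panel has its own y axis. p53 and damage-induced genes have medians of 0.15, 0.48 and 2.46 and mitosis genes of -0.56, -0.29 and -2.19 in that order, while FOS and EGR1, the highest immediate early genes in untransfected A549/cDDP, are below 0 in the other pair of measurements.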

How the data were processed

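RNA from poly(A)-selected libraries was sequenced in 16 samples of A549 and A549/cDDP cells, in 8 groups of 2. The authors deposited FPKM values per gene; per the submitters' processing notes TopHat2, HTSeq 0.6.1 and hg38 were used, and the annotation release and the strand setting are not given in the sources used here. No raw counts were used. Values at low levels fell on steps of approximately whole reads (tolerance 0.02), from which depth was estimated as 31350000 to 43140000 fragments per library, but not closely enough for a test on counts.

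The 17198 genes whose mean over the 16 libraries reached 0.5 FPKM were tested with limma 3.58.1 (R 4.3.3, trended variance) on log2(FPKM + 0.5), all 8 groups in a single fit with 8 residual degrees of freedom, and p-values were adjusted by Benjamini-Hochberg over all genes. Differences of effects were contrasts in the same fit. Simulated data for the cisplatin contrast in A549/cDDP had 17198 genes and noise that was independent between genes and libraries. Changes of 0.5 and of 1 (log2) were put into 100 genes each, drawn from genes above 1 on the log2 scale. Of these changes 69% and 91% were recovered, and 4.8% of calls were false. Shifts shared by many genes of a library were not simulated, and the median absolute change called in the data was 0.31. These shares are thus not the error rate of the reported calls. Summaries and plots used Python 3.11.15, pandas 2.3.3, numpy 2.4.6 and matplotlib 3.10.9. Gene models came from GENCODE release 29, which held 56868 of 60448 identifiers, and promoters from RefSeq. Of 630 gene list entries 628 matched an identifier.

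The gene lists and the comparisons were chosen with earlier results of these data known. Genes are named by rule: CDKN1A and MDM2, ELF3 and its antisense gene ELF3-AS1, and TOP1, YBX1 and HNRNPK; the 15 largest rises and 15 largest falls past the threshold whose groups did not overlap and whose higher group averaged 5 FPKM or more; every gene past the threshold that changed at least 2-fold; and up to 6 members of each list past the threshold, or the 2 with the highest mean where none passed. Other list members are named with their values as context, chosen after their values were seen. A few genes that these rules name are not reported here.

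Alternatives were pseudocounts of 0.1 and 1 FPKM, no filter, a filter at a mean of 2 FPKM, median ratio scaling, quantile normalization, a fit of only the groups compared, a replicate block and leaving out each library. Those leaving out control gapmer or A549 libraries, and all those for A549, were chosen after seeing the data. The precision is limited by 2 libraries per group.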

Additional observations from a re-analysis of the deposited data

Results flagged for a closer look

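Differences of the cisplatin effect were listed for CDKN1A, MDM2, ELF3, ELF3-AS1, TOP1, YBX1 and HNRNPK and for the 17 genes that changed at least 2-fold in A549/cDDP; other genes named above were not listed, and many of them differed too. The 17 were chosen on the A549/cDDP effect, which is part of each difference. The effect in A549/cDDP differed from that in A549, in the same limma fit, for 16 of these genes, against 47% of all genes. The difference, A549/cDDP minus A549 on the log2 scale, was positive for FOS (4.78, limma adjusted p = 3.83e-08), EGR1 (3.90, limma adjusted p = 1.81e-07), GPC6 (2.15, limma adjusted p = 2.95e-06) and HNRNPK (0.23, limma adjusted p = 0.00865). FOS and EGR1 fell in A549, and GPC6 fell further there. It was negative for the p53 targets CDKN1A (-3.96, limma adjusted p = 1.09e-14) and MDM2 (-3.73, limma adjusted p = 4.97e-11), which rose in A549. The same held for the neighbours LINC01629 (-3.24, limma adjusted p = 9.59e-08) and AC007686.1 (-3.03, limma adjusted p = 3.15e-07), for LCN2 (-2.84, limma adjusted p = 7.3e-09) and TRIM31 (-2.68, limma adjusted p = 2.26e-07), and for the overlapping genes ELF3-AS1 (-2.41, limma adjusted p = 3.75e-06) and ELF3 (-1.24, limma adjusted p = 1.31e-07). TOP1 differed by -0.33 (limma adjusted p = 0.000623). LINC02990, with under 25 reads in each library of untransfected A549/cDDP, differed by -1.02 (limma adjusted p = 0.0487). The identifiers ENSG00000221595 (1.77, limma adjusted p = 0.0483) and ENSG00000216168 (-1.55, limma adjusted p = 0.0113) had no gene model, so their reads could not be estimated. ENSG00000221595 was listed at 0 in every A549 library, so its difference only repeats its change in A549/cDDP.

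Between untransfected cells and cells with the control gapmer the effect of cisplatin differed for 8 of the same genes, against 1.88% of all genes. The difference, untransfected minus control gapmer, was 3.26 for FOS (limma adjusted p = 0.000223) and 2.28 for EGR1 (limma adjusted p = 0.00154). It was -1.52 for TRIM31 (limma adjusted p = 0.00215), -1.21 for LCN2 (limma adjusted p = 0.00107) and -0.45 for CDKN1A (limma adjusted p = 0.000223). ELF3 differed by -0.72 and MDM2 by -0.55, with limma adjusted p values of 0.00125 and 0.0112. ENSG00000216168, listed at 0 in both untransfected cisplatin libraries, differed by -2.22 (limma adjusted p = 0.0254).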

How the results depend on the processing

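With 2 libraries a group, counts of genes past the threshold depended most on single libraries and on which groups share the estimate of spread. A fit of only the groups compared called 417 genes in A549/cDDP (166 higher and 251 lower), 270 with the control gapmer (160 higher), 14 S phase, 5 Fanconi anaemia and homologous recombination and 40 genes of at least 300 kb. Without a filter 402 genes were higher, and 11 Fanconi anaemia and homologous recombination and 8 integrated stress response genes were called. With median ratio scaling 190 genes were higher with the control gapmer.

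Leaving out 1 library at a time gave 509 to 1049 genes in A549/cDDP, 182 to 443 of them higher and 320 to 606 lower. It gave 137 to 179 genes with the control gapmer (108 to 143 higher, 28 to 36 lower), 9167 to 9287 in A549, 7217 to 7650 for the difference between lines and 110 to 329 for that between untransfected and control gapmer. For list members it gave 5 to 9 p53, 19 to 24 mitosis, 14 to 20 S phase, 8 to 12 Fanconi anaemia and homologous recombination, 6 to 9 immediate early and 6 to 8 integrated stress response genes, and 57 to 108 for long genes. The lone library left is taken to vary like the others.

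Same-numbered cisplatin and solvent libraries did not deviate together (correlation over genes -0.0727 in A549/cDDP). The labels do not say whether equal numbers were prepared together, and this correlation cannot settle it. A fit with the replicate block called 1312 genes (571 higher, 741 lower), 1115 of them among the 1393.

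Of the 149 named genes past the threshold 51 passed under every alternative run. The sign turned for DDB1, with -0.0114 to 0.0353 over fits without 1 library, never past the threshold.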
